A study of Rattus norvegicus with 8 samples.

Results

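Hippocampal RNA of 5 rats injected with pentylenetetrazole (PTZ) was compared with that of 3 vehicle rats, to see which changes were present both with and without later Q808 treatment. The injected rats were those of the PTZ group (3 libraries) and the Q808 group (2 libraries), and the vehicle rats were the Con. group, so that all 8 libraries of the study entered the comparison. Each library came from the hippocampus of 1 wild-type Wistar rat of 180 to 220 g, and age and sex were not among the labels. In the first 28 days the PTZ and Q808 groups were given PTZ intraperitoneally at 35 mg/kg every 48 h, 14 injections in all, with 60 mg/kg on the last day, while the Con. group was given saline. During the 28 days that followed, the Q808 group was gavaged daily with Q808 at 30 mg/kg, and both other groups received its solvent. One more sub-convulsive PTZ injection was given to the PTZ and Q808 groups after the last dose of Q808, and tissue was taken after the seizures had been scored. Responses to that last injection and lasting effects of kindling therefore cannot be told apart in these data, and the Con. rats received neither. Whether each sequenced rat met the study's criterion for kindling is not given. Values were deposited in FPKM, a fragment count divided by transcript length and by the library's mapped fragments, and 15593 of 22601 genes had a mean of at least 0.1 FPKM over the 8 libraries and were tested.

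PTZ blocks the chloride channel of the GABA-A receptor, the main inhibitory receptor of the brain. Repeated sub-convulsive doses kindle an animal, so that a dose which at first has little effect comes to produce generalized seizures. In the hippocampus, seizures are known to induce immediate early genes in neurons within minutes to hours, and they also raise circulating glucocorticoids and act on glia and blood vessels.

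Striatal markers divided the libraries across the groups. A list of 8 genes of striatal projection neurons averaged 7.12 on the log2(FPKM + 0.1) scale in Con.-3, while PTZ-3 reached 5.78 and Q808-1 reached 5.79, and the 5 remaining libraries lay at 1.48 to 2.38, so that each group held 1 library with high striatal markers. Marker genes of hippocampal neurons were present in every library, at means of 1.67 to 3.43 for dentate granule cells, 2.17 to 3.56 for CA1 pyramidal cells and 4.11 to 4.62 for CA2 and CA3 pyramidal cells. Depth relative to Con.-1, read from the steps of low FPKM values, ran from 0.854 to 1.19. Without the high-striatal libraries, Con.-1, Con.-2, PTZ-1, PTZ-2 and Q808-2 remained, and Q808-2 alone stood for the Q808 group. Of 77 genes named by a fixed rule, 18 lost their call when the high-striatal libraries were left out, and their values without them stand beside their results.

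A gene was called when limma on log2(FPKM + 0.1) gave an unadjusted p under 0.05 and the fitted change was more than 1.5-fold, and "rose" and "fell" below are used only for called genes. In the injected rats 268 genes were called higher (1.72%) and 83 lower (0.532%), while the median log2 fold change over all genes tested was -0.01. After quantile normalization 220 genes were called higher and 134 lower, which took the share of higher calls from 76.4% to 62.1%. An unadjusted p under 0.05 was found for 580 genes (3.72%), where 780 are given by evenly spread p-values, and after Benjamini-Hochberg adjustment in limma 1 gene, *Bad*, remained under 0.05 (0.00641%). The next lowest adjusted p was 0.803, so the calls other than *Bad* rest on unadjusted values. Folds on this scale understate the change of genes with low FPKM.

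Changes shared by both injected groups were narrowed to called genes whose PTZ and Q808 means each lay more than 1.5-fold from the Con. mean on the same side, and whose 5 injected libraries all lay outside the range of the 3 Con. libraries. There were 126 such genes with higher values (0.808%) and 19 with lower values (0.122%). The filter was a mean over all 8 libraries, so a gene near 0 in 1 group could enter through the other. The division into higher and lower genes depended on the filter, the scaling and single libraries. It was 136 higher and 30 lower over all genes with any value above 0, and 97 higher and 43 lower after quantile normalization. In the 5 low-striatal libraries, where Q808-2 alone stood for the Q808 group, it was 260 higher and 80 lower. The 19 lower genes became 65 without Con.-1, 43 without Con.-2, 105 without Con.-3, 30 without PTZ-1, 46 without PTZ-3 and 68 without Q808-2, and the 126 higher genes became 294 without Con.-3, where fewer libraries had to lie apart. Over all genes tested, the 5 injected libraries lay above the 3 Con. libraries for 315 genes (2.02%) and below them for 278 (1.78%). The median log2 difference of the 126 genes was 0.99 between the PTZ and Con. groups and 1.09 between the Q808 and Con. groups, and that of the 19 genes was -0.94 and -0.77, with the same Con. libraries in both. Of the 268 genes called higher, 218 had both group means past 1.5-fold, 26 only that of the PTZ group and 24 only that of the Q808 group, and the corresponding counts for the 83 lower genes were 45, 28 and 10. The Q808 and PTZ groups themselves differed at an unadjusted p under 0.05 in limma for 4 of the 145 shared genes (2.76%), against 3.42% of all genes. The rule for shared genes favours genes in which the injected groups agree. A low share was therefore favoured in advance and is no evidence of equal levels. The median half-width of the 95% interval of that difference was 0.91 on the log2 scale for the 126 genes, and a difference between the injected groups smaller than a gene's own interval could not be seen. In total, 125 of the 126 and 19 of the 19 were also called with the striatal set of the library as a covariate, and 98 and 11 were called in the 5 low-striatal libraries alone.

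*Bad*, which encodes a BH3-only protein of the Bcl-2 family that promotes apoptosis, had the smallest p of all genes tested. It was measured at 3.65, 4.10 and 3.99 FPKM in the Con. libraries, at 27.6, 24.1 and 17.0 FPKM in the PTZ libraries and at 17.6 and 30.05 FPKM in the Q808 libraries. Every injected library was thus above all Con. libraries, which were close to each other. The means were 3.91 ± 0.23 FPKM (SD, n = 3) and 23.3 ± 5.83 FPKM (SD, n = 5), and the log2 fold change was 2.51 (SE 0.21, 95% interval 2.04 to 2.98, limma adjusted p = 0.00985). Over the alternative settings the adjusted p of *Bad* lay between 0.000715 and 0.130. The difference between the Q808 and PTZ groups was 0.04 on the log2 scale (95% interval -0.60 to 0.67). *Bad* was the only called gene among 29 tested members of an apoptosis and p53 list, whose median log2 fold change was 0.05. Of its neighbours on the chromosome, *Gpr137*, which encodes a membrane protein of lysosomes, was between 48.02 and 59.4 FPKM in the 8 libraries with a log2 fold change of 0.05 (SE 0.11), and *Plcb3*, a phospholipase C, was between 3.06 and 5.16 FPKM with 0.28 (SE 0.20).

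The promoter of *Bad* is shown because the gene was the only one to pass adjustment. It is RefSeq sequence of the GRCr8 assembly, from 250 bases before to 50 after the annotated start, at chr1:213562864-213563163 on the + strand, and it held no match to TGANTCA, the letters bound by AP-1, the dimer of Fos and Jun family proteins.
Bad: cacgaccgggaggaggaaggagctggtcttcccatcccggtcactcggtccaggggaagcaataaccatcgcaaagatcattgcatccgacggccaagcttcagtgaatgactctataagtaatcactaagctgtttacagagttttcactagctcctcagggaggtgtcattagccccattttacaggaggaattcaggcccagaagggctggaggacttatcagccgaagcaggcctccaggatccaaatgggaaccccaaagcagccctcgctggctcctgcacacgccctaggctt

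The 14 other shared higher genes with the smallest p-values and a mean of at least 1 FPKM are described by what they encode. *Tmem252*, a small transmembrane protein, was measured at 0.445, 0.865 and 0.552 FPKM in the Con. libraries, at 5.47, 6.10 and 2.08 FPKM in the PTZ libraries and at 3.83 and 2.48 FPKM in the Q808 libraries. The lowest injected library, PTZ-3, was still above the highest Con. library. Its log2 fold change was 2.43 (SE 0.39, limma adjusted p = 0.803, 0.356 to 1.00 over the alternatives). *Fn1*, which encodes the matrix glycoprotein fibronectin, lay between 4.22 and 4.91 FPKM in the Con. libraries and between 7.91 and 11.5 FPKM in the injected ones, a log2 fold change of 1.00 (SE 0.17). *Tinagl1*, a secreted matrix protein, rose by 1.12 on the log2 scale (SE 0.19), with 4.73 ± 0.62 FPKM (SD, n = 3) in the Con. and 10.5 ± 1.88 FPKM (SD, n = 5) in the injected libraries. For both genes the libraries of each group were close together and did not overlap with the other group.

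*Slc2a1*, which encodes GLUT1, the glucose transporter of the blood-brain barrier and astrocytes, was measured at 50.2, 52.0 and 58.7 FPKM in the Con. libraries, at 94.5, 105 and 84.5 FPKM in the PTZ libraries and at 131 and 72.1 FPKM in the Q808 libraries. All injected libraries were higher, and Q808-2 came nearest to the Con. range. The log2 fold change was 0.83 (SE 0.18), and it was 0.81 in the 5 low-striatal libraries. *Mfsd2a*, the transporter that carries docosahexaenoic acid as lysophosphatidylcholine across the same barrier, averaged 10.5 ± 1.00 FPKM in the Con. and 16.6 ± 2.08 FPKM in the injected libraries (SD, n = 3 and 5) and rose by 0.65 (SE 0.14). *Thbd*, the endothelial anticoagulant receptor thrombomodulin, rose by a log2 fold change of 1.02 (SE 0.23) and *Lrrc32*, which holds latent TGF-β at the cell surface, by 1.38 (SE 0.27). *Tubb6*, a β-tubulin, rose by 1.54 (SE 0.27), *Cnn2*, the actin-binding calponin 2, by 1.02 (SE 0.22), and *Micall2*, a Rab effector at cell junctions, by 1.69 (SE 0.36). *Emp1*, a tetraspan membrane protein, rose by 1.24 (SE 0.23), *Rrad*, a small GTPase that inhibits voltage-gated calcium channels, by 0.92 (SE 0.21), *Pomc*, the precursor of ACTH and β-endorphin, by 1.26 (SE 0.25), and *Cux2*, a homeobox factor of upper cortical layers, by 1.14 (SE 0.27). In each of these 15 genes the 95% interval of the difference between the Q808 and PTZ groups held 0, which their choice as shared genes favoured.

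**Figure D1:**
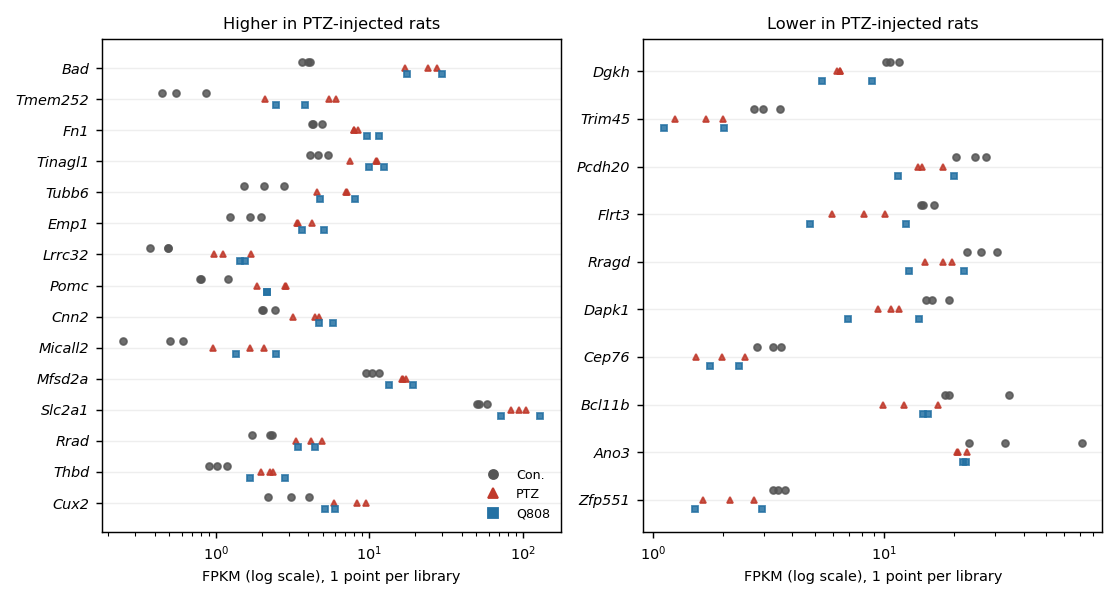
FPKM on a log scale (x axis) of the 15 higher and 10 lower shared genes with the smallest p-values (y axis), with 1 point per library of the Con. (grey circles), PTZ (red triangles) and Q808 (blue squares) groups. No injected library lies within the range of the Con. libraries in any row, as the choice of these genes required, and *Bad* shows the widest gap relative to the spread of each group.

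Only 10 of the 19 shared lower genes had a symbol and a mean of at least 1 FPKM, and their changes were smaller. *Dgkh*, a diacylglycerol kinase, was measured at 11.5, 10.6 and 10.2 FPKM in the Con. libraries, at 6.44, 6.45 and 6.21 FPKM in the PTZ libraries and at 5.35 and 8.86 FPKM in the Q808 libraries. The PTZ libraries were nearly equal to each other, and Q808-2 was the injected library nearest to the Con. range. The log2 fold change was -0.70 (SE 0.17). *Flrt3*, an adhesion molecule that binds latrophilins at synapses, fell from 15.2 ± 1.07 to 8.27 ± 3.09 FPKM (SD, n = 3 and 5), *Pcdh20*, a protocadherin, from 24.3 ± 3.6 to 15.6 ± 3.41 FPKM, and *Dapk1*, the death-associated protein kinase, from 16.7 ± 2.1 to 10.6 ± 2.67 FPKM. *Rragd*, a GTPase that recruits mTORC1 to lysosomes, fell by 0.62 on the log2 scale (SE 0.19), *Trim45*, a ubiquitin ligase, by 0.92 (SE 0.26), *Cep76*, a centrosomal protein, by 0.67 (SE 0.22), and *Zfp551*, a zinc finger protein, by 0.69 (SE 0.26). In the low-striatal libraries *Rragd* and *Zfp551* were not called, at -0.54 and -0.61.

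*Bcl11b* and *Ano3* belong to the same 10 genes, and both were highest in Con.-3, the Con. library with high striatal markers. *Bcl11b*, a transcription factor of striatal, dentate and CA1 neurons, was measured at 19.0, 18.3 and 34.6 FPKM in the Con. libraries and at 9.84 to 17.1 FPKM in the injected ones. *Ano3*, a calcium-linked membrane protein abundant in striatum, was measured at 23.2, 33.1 and 71.3 FPKM in the Con. libraries and at 20.6 to 22.7 FPKM in the injected ones. In the low-striatal libraries alone the log2 fold change of *Bcl11b* was -0.60 and that of *Ano3* was -0.34, and only the former was called there.

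**Figure D2:**
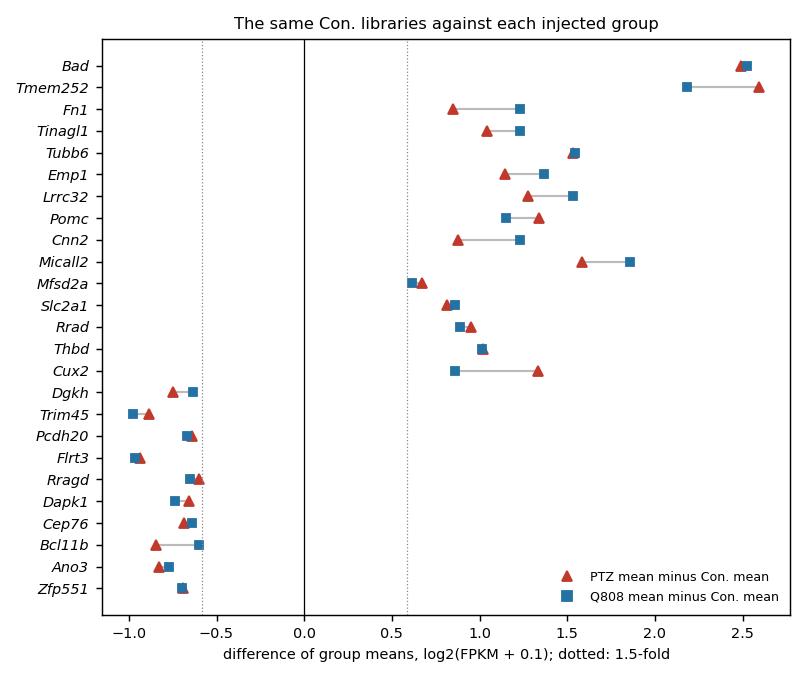
Differences of group means on the log2(FPKM + 0.1) scale (x axis) between the PTZ and Con. groups (red triangles) and between the Q808 and Con. groups (blue squares) for the same 25 genes (y axis), with dotted lines at 1.5-fold. Both differences use the same Con. libraries. For *Bad* they were 2.49 and 2.53, and the points of a gene lie furthest apart for *Cux2*, at 1.33 and 0.86.

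Of the 42 lists of pathway and cell type genes, 21 had no called member. Over all lists 51 of 657 distinct genes tested were called higher and 5 lower, with a gene in several lists counted once. Immediate early genes, which encode transcription factors and signalling proteins induced by neuronal firing, had 7 of 32 tested members called higher and none lower (1.72% and 0.532% of all genes), and 30 of the 32 had a log2 fold change above 0, with a median of 0.73. Of the 32, 3 were shared changes with higher values (0.808% of all genes). *Fosb*, an AP-1 subunit, was measured at 2.72, 3.15 and 10.1 FPKM in the Con. libraries, at 58.3, 265 and 5.21 FPKM in the PTZ libraries and at 24.0 and 12.6 FPKM in the Q808 libraries. PTZ-1 and PTZ-2 were far above the rest, and PTZ-3 lay within the Con. range. *Fos*, the founding member of that family, was measured at 5.70, 7.71 and 22.4 FPKM in the Con. libraries, at 31.7, 150 and 12.5 FPKM in the PTZ libraries and at 28.7 and 21.5 FPKM in the Q808 libraries, again with the injected and Con. values overlapping. *Maff*, a small Maf factor, did not overlap, with 0.261, 0.464 and 0.556 FPKM in the Con. libraries, 4.13, 8.22 and 0.679 FPKM in the PTZ libraries and 2.91 and 2.63 FPKM in the Q808 libraries.

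The log2 fold changes were 2.73 for *Fosb* (SE 1.10), 1.70 for *Fos* (SE 0.74) and 2.53 for *Maff* (SE 0.65). *Atf3*, a stress-induced factor of the CREB family, rose by 2.11 (SE 0.70), but PTZ-3, at 0.696 FPKM, lay within the Con. range. The AP-1 subunit *Fosl1* rose by 2.05 (SE 0.70), the AP-1 subunit *Jund* by 0.62 (SE 0.24) and *Ier3*, a regulator of cell survival, by 0.86 (SE 0.20). *Fosl1* averaged 0.0564 FPKM in the Con. libraries and passed the filter of 0.1 FPKM only through the injected libraries. The call was lost in 10 of 19 alternative settings for *Fos*, in 8 for *Jund* and in 4 for *Fosb*, with the replicate number as a block among them for all 3, and for *Fos* also after quantile normalization and median ratio scaling. The median log2 difference of the 32 members was 0.95 between the PTZ and Con. groups, with 9 called higher (1.76% of all genes), and 0.26 between the Q808 and Con. groups, with 2 called higher (2.59% of all genes). Both use the same Con. libraries, and the difference between them was not tested over the list. Con.-3 and PTZ-3, which were high in striatal markers, were the highest Con. and the lowest PTZ library for *Fos* and *Fosb*. In the 5 low-striatal libraries, which leave both of them out, 20 of the 32 members were called higher (2.47% of all genes). With the striatal set as a covariate 7 of the 32 were called higher, with a median of 0.76, beside 369 of all 15593 genes. The part of the striatal markers in this result was not tested. Among 20 genes that follow neuronal activity later, 2 rose and none fell (1.72% and 0.532% of all genes). They were *Gadd45g*, a growth arrest gene (1.39, SE 0.39), and *Cdkn1a*, which encodes the cell cycle inhibitor p21 (1.41, SE 0.34), and the list median was 0.96 in the PTZ against the Con. group and -0.05 in the Q808 against the Con. group.

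Genes that glucocorticoids are known to induce had 9 of 20 tested members called higher and none lower (1.72% and 0.532% of all genes). They had 19 of 20 log2 fold changes above 0 and a median of 0.66. Of the 20, 4 were shared changes with higher values (0.808% of all genes). The list median was similar in the PTZ against the Con. group (0.61, 6 called higher, 1.76% of all genes) and in the Q808 against the Con. group (0.66, 8 called higher, 2.59% of all genes). *Cdkn1a* also belongs to this list, and it was measured at 8.15, 7.31 and 6.93 FPKM in the Con. libraries, at 24.2, 29.0 and 9.05 FPKM in the PTZ libraries and at 24.5 and 20.5 FPKM in the Q808 libraries. PTZ-3 was only just above the Con. range and the other 4 injected libraries were well above it. *Pdk4*, the kinase that shuts off pyruvate dehydrogenase, was measured at 3.84, 5.69 and 8.55 FPKM in the Con. libraries and at 9.29 to 28.6 FPKM in the injected ones, without overlap. *Sgk1*, a kinase that regulates ion transport, rose from 48.1 ± 8.27 to 90.3 ± 40.0 FPKM (SD, n = 3 and 5), and PTZ-3, at 55.0 FPKM, lay within the Con. range.

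The other called members were *Nfkbia*, the inhibitor of NF-κB (0.83, SE 0.26), *Errfi1*, an inhibitor of the EGF receptor (0.91, SE 0.37), *Map3k6*, a stress kinase (1.60, SE 0.34), *Plin4*, a lipid droplet protein (0.69, SE 0.27), *Mt1*, a metallothionein (0.96, SE 0.41), and *Tmem252*. In PTZ-3 *Errfi1*, at 4.34 FPKM, was below every Con. library, and *Plin4*, at 1.18 FPKM, and *Nfkbia*, at 18.5 FPKM, lay within the Con. range. The call was lost in 9 of 19 alternatives for *Errfi1*, in 7 for *Mt1* and in 6 for *Plin4*. Of the members that were not called, *Fkbp5*, a co-chaperone of the glucocorticoid receptor, had a log2 fold change of -0.16 and *Tsc22d3*, an anti-inflammatory leucine zipper protein, of 0.36. After quantile normalization and after median ratio scaling 7 of the 20 were called higher, beside 220 and 289 of all 15593 genes. In the low-striatal libraries 12 of the 20 were called higher (2.47% of all genes).

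Inflammatory response genes had 9 of 28 tested members called higher and none lower (1.72% and 0.532% of all genes), with a median log2 fold change of 0.45. Of the 28, 6 were shared changes with higher values (0.808% of all genes). *Socs3*, the feedback inhibitor of JAK and STAT signalling, was measured at 0.359, 0.534 and 0.390 FPKM in the Con. libraries, at 4.69, 6.46 and 1.03 FPKM in the PTZ libraries and at 1.15 and 0.904 FPKM in the Q808 libraries. All injected libraries were above the Con. range, with PTZ-1 and PTZ-2 far above the others. *Ccl2*, a chemokine that attracts monocytes, was listed at 0 in 2 Con. libraries and at 0.0908 FPKM in Con.-3, and lay between 0.105 and 0.916 FPKM in the injected libraries. Its Con. mean of 0.0303 FPKM was under the filter of 0.1 FPKM, so *Ccl2* entered the test and the count of 9 only through the injected libraries. *Osmr*, the oncostatin M receptor, rose by 1.51 (SE 0.34), *Il1r1*, the interleukin 1 receptor, by 1.05 (SE 0.29), *Ptges*, a prostaglandin E synthase, by 1.14 (SE 0.34), *Icam1*, an endothelial adhesion molecule, by 0.86 (SE 0.27), *Stat3* by 0.64 (SE 0.22) and *Hmox1*, which degrades heme, by 0.70 (SE 0.24). *Nfkbia* is counted in this list as well. *Hmox1* was not called in the low-striatal libraries, at 0.55. The counts of called members were 9 of 28 under quantile normalization, under median ratio scaling, with the striatal set as a covariate and in the low-striatal libraries.

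Smaller lists of related function had 1 or 2 called members each, beside 1.72% of all genes called higher and 0.532% called lower. Of 15 tested complement genes *C5ar1*, the C5a receptor, rose (6.67% of the list), by 0.84 (SE 0.30) and by 0.73 without a call in the low-striatal libraries. Of 18 antigen processing genes *Ifit3* rose (1.14, SE 0.27) and *Ifit1* fell (-1.89, SE 0.71), both interferon-induced and each 5.56% of the list. *Ifit1* was listed at 0 in Con.-3, PTZ-1, PTZ-3 and Q808-2, so its Con. and injected values overlapped. It averaged 0.0201 FPKM in the injected libraries and passed the filter of 0.1 FPKM only through the Con. libraries. *Timp1*, an inhibitor of metalloproteinases and a marker of reactive astrocytes, was measured at 2.91, 1.15 and 1.47 FPKM in the Con. libraries, at 15.6, 57.9 and 5.70 FPKM in the PTZ libraries and at 3.35 and 5.52 FPKM in the Q808 libraries. Its groups did not overlap, and it was 1 of 2 called (20% of the list) among 10 tested reactive astrocyte markers, next to *Osmr*.

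**Figure D3:**
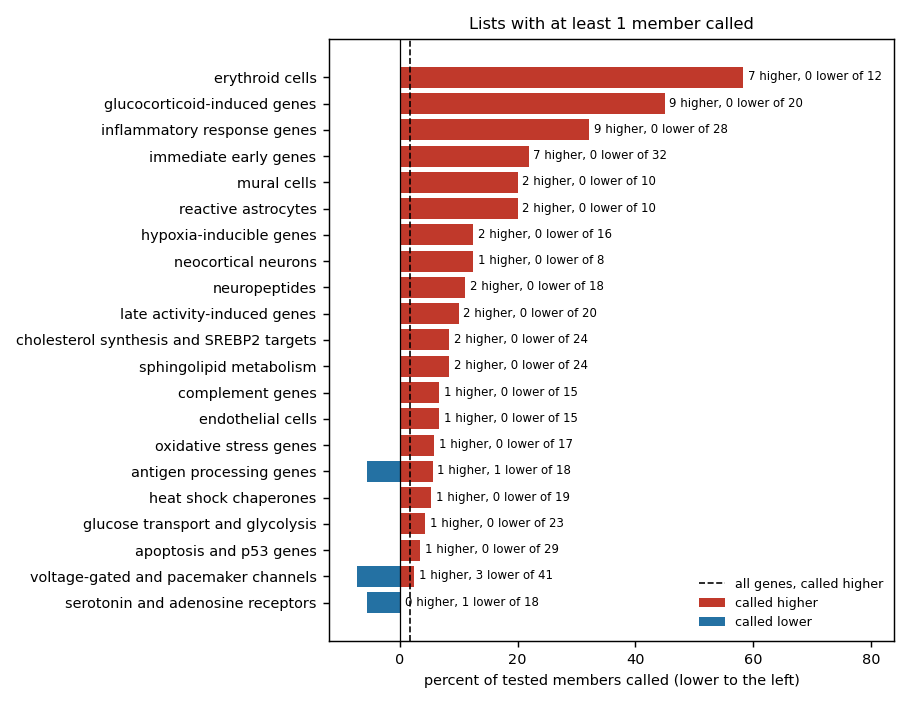
Percent of tested members called higher (red, to the right) and lower (blue, to the left) in the injected rats (x axis) for the 21 lists with at least 1 called member (y axis), with counts beside the bars. The dashed line marks the 1.72% of all genes called higher, and the longest bars are those of erythroid genes (7 of 12), glucocorticoid-induced genes (9 of 20), inflammatory response genes (9 of 28) and immediate early genes (7 of 32).

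**Figure D4:**
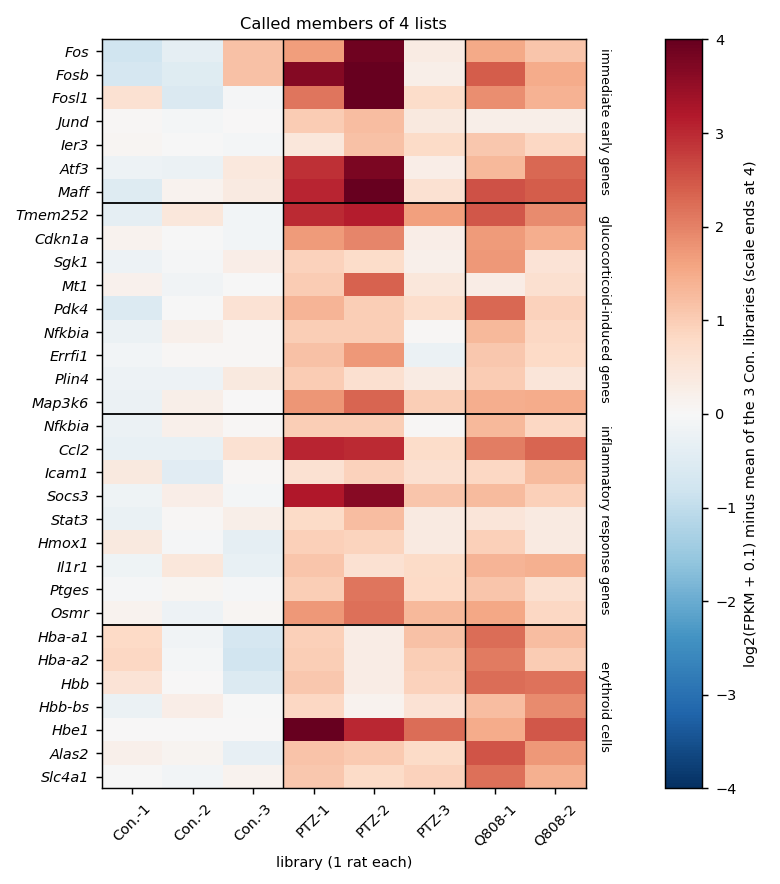
Difference of log2(FPKM + 0.1) from the mean of the 3 Con. libraries (colour, red higher and blue lower, with the scale ending at 4) for the called members of 4 lists (rows) in each library (columns). *Nfkbia* stands in both lists it belongs to. PTZ-1 and PTZ-2 are the darkest columns for immediate early genes, PTZ-3 is pale there, and Q808-1 is dark for several erythroid genes.

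In the systems that PTZ and antiepileptic drugs act on, calls were found among ion channels. None of 25 tested genes of the GABA system and none of 33 of the glutamate system was called in limma, a count near what 1.72% and 0.532% of all genes give for lists of this size, with medians of -0.09 and -0.09, and at an unadjusted p under 0.05 there were none of the former and 2 of the latter, *Grik2*, a kainate receptor subunit (-0.43), and *Slc1a3*, an astrocytic glutamate transporter (0.33). The log2 fold change was -0.39 for *Gabrd*, a GABA-A receptor subunit. Of 41 tested voltage-gated and pacemaker channel genes, *Kcnip3*, a subunit that modulates Kv4 channels, rose (2.44% of the list) and 3 fell (7.32%). The share that rose was near the 1.72% of all genes called higher. *Kcnip3* rose by 0.59 on the log2 scale (SE 0.15), with the call lost in 5 of 19 alternatives. Of the 41, 0 were shared changes in either direction (0.808% higher and 0.122% lower of all genes). *Kcnd2*, the Kv4.2 channel of dendritic A-type current, was measured at 40.4, 39.4 and 48.9 FPKM in the Con. libraries, at 33.7, 29.1 and 24.9 FPKM in the PTZ libraries and at 16.1 and 32.9 FPKM in the Q808 libraries. The groups did not overlap, and the lowest value was that of Q808-1. The log2 fold change was -0.69 (SE 0.23), and -0.32 in the low-striatal libraries, which is below 1.5-fold. Between the PTZ and Con. groups alone it was -0.56, also below 1.5-fold. *Cacna1h*, the T-type calcium channel Cav3.2, fell from 17.3 ± 2.42 to 11.7 ± 3.49 FPKM (SD, n = 3 and 5), with Q808-2, at 17.8 FPKM, within the Con. range. *Kcnip2*, another Kv4 subunit, fell by 0.97 on the log2 scale (SE 0.43), with overlapping groups. The call was lost in 11 of 19 alternatives for *Cacna1h*, among them both scalings, the striatal set as a covariate and the low-striatal libraries (-0.53), and in 9 of 18 for *Kcnip2*, the covariate among them.

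No member was called in limma among 26 genes of presynaptic release, 19 circadian clock genes, 11 insulin-like growth factor genes, 12 ABC drug efflux transporters and 22 proliferation and neurogenesis genes. Such counts are near what 1.72% and 0.532% of all genes, called higher and lower, give for lists of this size. At an unadjusted p under 0.05 alone there was 1 gene in each of the first 3 lists, *Stx1a* (0.54), *Tef* (-0.35) and *Igf2r* (-0.42), and 0 in the other lists. Of 18 tested neuropeptide genes *Crh*, the corticotropin-releasing hormone (0.95, SE 0.38), and *Cort*, cortistatin (0.73, SE 0.28), rose, but neither was called in the low-striatal libraries, at 0.67 and 0.33, and *Crh* lost its call in 9 of 19 alternatives. Of 18 serotonin and adenosine receptors *Htr1f* fell (-0.80, SE 0.33), with -0.65 and no call in the low-striatal libraries and the call lost in 8 of 19 alternatives. Cholesterol synthesis genes had 23 of 24 log2 fold changes above 0 with a median of 0.21, and 2 were called higher, among them *Insig1*, a sterol-regulated protein of the endoplasmic reticulum (0.70, SE 0.23, and 0.74 without a call in the low-striatal libraries). Of 24 sphingolipid genes *Acer2*, an alkaline ceramidase (1.33, SE 0.32), and *Sphk1*, sphingosine kinase 1 (1.21, SE 0.44), rose. *Sphk1* was low, at means of 0.105 FPKM in the Con. and 0.43 FPKM in the injected libraries. It lost its call in 3 of 18 alternatives, a pseudocount of 1 and quantile normalization among them. *Acer2* was between 2.38 and 2.46 FPKM in the Con. libraries and between 3.45 and 10.7 FPKM in the injected ones, without overlap. Of 16 hypoxia-inducible genes *Adm*, the vasodilator peptide adrenomedullin (1.02, SE 0.37), and *Hif3a* (1.07, SE 0.45) rose. Their calls were lost in 5 and 9 of 18 alternatives, quantile normalization among them for both. Neither was a shared change, and the injected and Con. values overlapped. *Adm* was at 0.473 FPKM in Q808-1 and 0.579 FPKM in Con.-1, and *Hif3a* at 0.279 FPKM in PTZ-3 and 0.412 FPKM in Con.-3. Of 19 heat shock genes *Hspb1*, the small chaperone HSP27, rose (0.74, SE 0.20).

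Among pathways taken from the deposited KEGG annotation, ECM-receptor interaction had 6 of 69 tested genes called higher and none lower, beside 1.72% and 0.532% of all genes. Among them were *Fn1*, *Spp1*, *Col4a1*, *Itga5* and *Thbs1*, and the median of the pathway was 0.03 in the PTZ against the Con. group and 0.55 in the Q808 against the Con. group. None of 110 genes of oxidative phosphorylation was called in limma, with 0 at an unadjusted p under 0.05 alone. Of 128 ribosome genes and 42 proteasome genes 1 each rose (0.781% and 2.38%), near the 1.72% of all genes called higher. None was called among 71 genes of ribosome biogenesis, 153 of protein processing in the endoplasmic reticulum, 17 of steroid biosynthesis and 28 of circadian rhythm, with 0, 2, 1 and 0 at an unadjusted p under 0.05. In the KEGG pathways of the glutamatergic and GABAergic synapse, 1 of 106 and 0 of 82 genes were called in limma. At an unadjusted p under 0.05 there were 7 of the former and 2 of the latter, beside 3.72% of all genes.

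Genes of red blood cells had the largest share of calls among the 19 cell type lists, with 7 of 12 tested members called higher and none lower (1.72% and 0.532% of all genes). Their median log2 fold change was 1.14, and 3 of the 12 were shared changes with higher values (0.808% of all genes). The summed FPKM of the list lay between 375 and 1001 in the Con. libraries and between 721 and 2745 in the injected ones. The mean log2 level was 1.99, 1.41 and 1.17 in the Con. libraries, 2.77, 2.18 and 2.71 in the PTZ libraries and 3.33 and 2.93 in the Q808 libraries, a difference of 1.26 (p = 0.0357 in an exact permutation test, two-sided, the smallest p this test can give, and 0.679 after adjustment over 19 lists). All injected libraries were above the Con. range. *Alas2*, the erythroid enzyme of heme synthesis, was measured at 0.972, 0.913 and 0.641 FPKM in the Con. libraries, at 1.94, 1.82 and 1.49 FPKM in the PTZ libraries and at 5.22 and 3.03 FPKM in the Q808 libraries. The Q808 libraries were the highest and no groups overlapped.

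*Hbb*, a β-globin, was measured at 213, 148 and 100.1 FPKM in the Con. libraries, at 313, 179 and 281 FPKM in the PTZ libraries and at 685 and 668 FPKM in the Q808 libraries, so that PTZ-2 lay within the Con. range. *Hba-a1*, *Hba-a2* and *Hbb-bs* rose by 1.18 (SE 0.44), 1.07 (SE 0.42) and 0.94 (SE 0.36), and the erythrocyte anion exchanger *Slc4a1* by 1.28 (SE 0.39). *Hbe1*, an embryonic globin, was listed at 0 in all Con. libraries and lay between 0.182 and 22.5 FPKM in the injected ones. *Slc4a1* averaged 0.0498 FPKM in the Con. libraries. *Hbe1* and *Slc4a1* thus passed the filter of 0.1 FPKM, and entered the count of called members, only through the injected libraries. Reads of near-identical globin copies may have been divided among them, so values of single globin genes are uncertain. In bulk tissue, more cells of a type and more RNA per cell cannot be told apart. In the low-striatal libraries 3 of the 12 were called higher (2.47% of all genes). *Hbb*, *Hba-a1*, *Hba-a2* and *Hbb-bs* were not called there, at 0.91, 0.49, 0.38 and 0.95. The part of retained blood in the other results was not tested.

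Of the other cell type lists, those of blood vessels had called members, but their levels overlapped between the Con. and injected libraries. Of 15 endothelial genes *Pecam1* rose (0.67, SE 0.24), and the mean log2 level of the list was 2.82 to 3.00 in the Con. libraries and 2.29 to 4.0 in the injected ones (exact permutation p = 0.5). PTZ-1, at 2.73, and PTZ-2, at 2.29, lay below every Con. library. Of 10 mural cell genes *Des* (0.96, SE 0.30) and *Cnn1* (1.98, SE 0.59), both muscle proteins, rose, with list means of 1.56 to 1.97 in the Con. and 1.65 to 2.97 in the injected libraries (exact permutation p = 0.143). The summed FPKM ran from 166 to 174 in the Con. and from 125 to 361 in the injected libraries for the endothelial list, and from 72.2 to 87.3 and from 63.3 to 170 for the mural list. In the low-striatal libraries *Pecam1*, *Des* and *Cnn1* were not called, at 0.39, 0.64 and 1.65. The part of vessel content in the changes of *Slc2a1*, *Mfsd2a*, *Thbd* and *Tinagl1* was not tested, and in the low-striatal libraries, where the level of the endothelial cells list differed by -0.08 in the injected rats, the log2 fold changes of these genes were 0.81, 0.64, 1.12 and 1.09. None of 14 microglial genes and none of 12 astrocyte genes was called in limma (1.72% of all genes were called higher and 0.532% lower), with 1 in each list at an unadjusted p under 0.05. No gene was called or had an unadjusted p under 0.05 in the lists of oligodendrocytes, their precursors, choroid plexus, meninges, ependyma, interneurons and striatal, thalamic, dentate, CA1 and CA2 and CA3 neurons, and of 8 neocortical genes *Cux2* rose. The 4 Y-linked genes were measured in all 8 libraries.

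**Figure D5:**
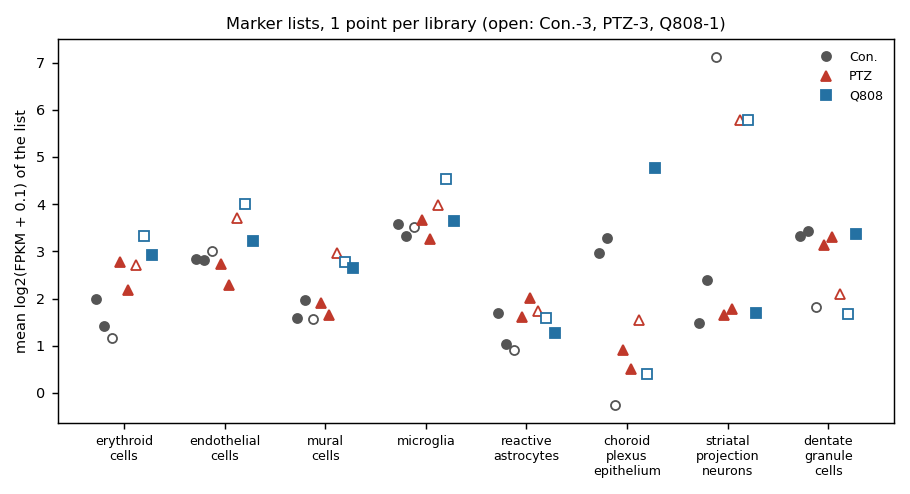
Mean log2(FPKM + 0.1) of 8 marker lists (y axis) in each library, with Con. as grey circles, PTZ as red triangles and Q808 as blue squares, and open symbols for Con.-3, PTZ-3 and Q808-1. The injected libraries lie above the Con. libraries only in the erythroid list, while the striatal and dentate lists part the open from the filled symbols in every group.

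Promoters were examined because AP-1 subunits were among the called genes. RefSeq promoters of 300 bases were matched for 92 of the 126 higher genes, 11 of the 19 lower genes and 12239 of all genes tested. The AP-1 letters TGANTCA, which read the same on both strands, were found in 18 of the 92 (19.6%), in 0 of the 11 and in 638 of the 12239 (5.21%). TGACG, the short cyclic AMP response element, was found on either strand in 21.7% of the 92 and 29.9% of all, AGAACA, part of the glucocorticoid response element, in 14.1% and 12.6%, CACCCCA, part of the sterol regulatory element, in 7.61% and 6.77%, CACGTG, the E-box, in 5.43% and 9.03%, and GCGTG, the core of the hypoxia element, in 43.5% and 47.2%. A match describes the letters in this window and is no evidence of binding.

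The AP-1 letters are shown in capitals in the promoters of 3 of these 18 genes, those described above by the naming rule. They lie at chr4:169943980-169944279 on the + strand for *Emp1*, chr2:57688512-57688811 on the - strand for *Osmr* and chr1:241527076-241527375 on the + strand for *Ifit3*, all of GRCr8, printed along the strand of the gene. *Emp1* holds 2 matches and the others 1 each.
Emp1: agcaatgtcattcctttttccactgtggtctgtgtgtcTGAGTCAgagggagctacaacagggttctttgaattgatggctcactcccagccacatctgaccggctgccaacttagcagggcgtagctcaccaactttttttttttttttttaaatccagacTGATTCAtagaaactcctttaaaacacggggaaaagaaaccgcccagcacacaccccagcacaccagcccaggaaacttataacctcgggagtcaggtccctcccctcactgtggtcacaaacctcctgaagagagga
Osmr: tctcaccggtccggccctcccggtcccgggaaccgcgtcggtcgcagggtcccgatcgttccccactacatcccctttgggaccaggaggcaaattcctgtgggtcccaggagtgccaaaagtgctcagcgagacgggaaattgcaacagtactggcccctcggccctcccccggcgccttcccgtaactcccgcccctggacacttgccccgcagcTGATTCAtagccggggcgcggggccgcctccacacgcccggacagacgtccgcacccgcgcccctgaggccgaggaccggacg
Ifit3: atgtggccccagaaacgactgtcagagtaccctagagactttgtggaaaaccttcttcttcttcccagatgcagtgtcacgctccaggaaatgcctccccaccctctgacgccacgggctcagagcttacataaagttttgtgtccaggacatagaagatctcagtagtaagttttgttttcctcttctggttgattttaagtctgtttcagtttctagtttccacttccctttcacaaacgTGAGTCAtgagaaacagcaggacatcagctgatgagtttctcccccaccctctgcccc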

How the data were processed

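Libraries were made from poly(A)-captured hippocampal RNA. The authors trimmed the reads with Trimmomatic, derived the deposited FPKM from Cufflinks, and obtained read counts with HTSeq for a DESeq test, which were not used here. HISAT2, Bowtie2, StringTie and SAMtools are named without roles in the submitters' processing notes, and the genome build and the strand of the reads are not given in the sources used here, so overlapping and antisense genes are uncertain.

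Groups came from the labels. For 20633 of 22601 GeneIDs a symbol was found in RefSeq's gene list of GRCr8. Genes averaging 0.1 FPKM or more (*Slc34a1*, at 0.1002, just inside and *Hand2*, at 0.09997, just outside) were fitted in R 4.3.3 with limma 3.58.1, empirical Bayes with a trend, with 1 coefficient for injected against Con. Libraries had Spearman correlations of 0.966 to 0.986 and none were identical. Permutation tests used scipy 1.17.1, tables pandas 2.3.3 and numpy 2.4.6, and figures matplotlib 3.10.9, under Python 3.11.15. The fit was tested on simulated data. FPKM are given without their counting error, so precision was judged from the spread between libraries alone.

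The study's limits of 1.5 and 0.67 were read as limits on the fold change. Named genes were the 15 higher and up to 15 lower shared genes with the smallest p, a mean of at least 1 FPKM and a symbol, every called member of the 42 lists, and genes with an adjusted p under 0.05, of which a few are not reported here. The comparison, the lists and the division of the libraries were chosen with earlier results of these data known. Alternatives were pseudocounts of 1 and 0.01, other filters, no trend, quantile and median ratio scaling, 3 group means, the replicate block, the striatal set, a 2-fold threshold, and each library left out.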

Additional observations from a re-analysis of the deposited data

Results flagged for a closer look

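The Q808 and PTZ groups differed at an unadjusted p under 0.05 in limma for 7 of the 77 named genes, with no adjustment over them. *Hbb* was higher in the Q808 group by 1.43 on the log2 scale (95% interval 0.65 to 2.22), *Alas2* by 1.15 (0.38 to 1.92), *Hbb-bs* by 1.05 (0.36 to 1.75) and *Htr1f* by 0.80 (0.02 to 1.58). *Jund*, at -0.64 (-1.18 to -0.11), *Insig1*, at -0.55 (-1.09 to -0.02), and *Timp1*, at -1.98 (-3.93 to -0.04), were lower in the Q808 than in the PTZ group.

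Among the 5 injected libraries, *Hbe1* in PTZ-1 stood apart from the others at 22.5 FPKM. Its gap to the next library was 0.759 of the range, above the 95% critical value of 0.71 for 5 samples, and 1 such value was found in 77 genes examined, where chance gives about 1 in 20.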

How the results depend on the processing

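The 351 calls became 141 at 2-fold, 155 with a pseudocount of 1, 215 at a mean of at least 1 FPKM, 199 when the groups also had to lie apart, 528 with the striatal set as a covariate, 577 in the low-striatal libraries and 1 by adjusted p. The 145 shared genes became 45, 44 and 82 under the first 3 of these, 340 in the low-striatal libraries and 1 by adjusted p. Leaving out a library gave 265 to 521 calls and 153 to 399 shared genes, with 521 and 399 without Con.-3 and 227 shared genes without Con.-1. Fewer libraries must then lie apart. Genes past an adjusted p of 0.05 numbered 0 to 2 over the alternatives.

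Replicate numbers were not taken to pair the rats. The correlation of deviations between libraries of the same number was 0.212, 0.299 and 0.422 for Con. with PTZ, 0.527 for Con.-2 with Q808-2 and 0.322 for PTZ-2 with Q808-2, but -0.379 for Con.-1 with Q808-1 and -0.295 for PTZ-1 with Q808-1. With the replicate block there were 399 calls, and 7 named genes lost theirs, *Fos*, *Fosb*, *Jund*, *Cort*, *Mt1*, *Hif3a* and *Htr1f*.

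Of the 77 named genes, 32 kept their call in all 19 alternatives, none changed direction, and *Cdkn1a* reached an adjusted limma p of 0.0242 in 1 of them. Calls were lost by 17, 24 and 20 genes without Con.-1, Con.-2 and Con.-3, by 11, 14 and 5 without PTZ-1, PTZ-2 and PTZ-3, by 13 and 4 without Q808-1 and Q808-2, by 20 with a pseudocount of 1 and by 18 in the low-striatal libraries. The level of the endothelial cells list changed sign in the low-striatal libraries (-0.0807, exact permutation p = 0.8). The cause was not tested. List counts under the striatal set and the scalings were added after the data were seen. Absolute depth was not used here, so low genes carry an unquantified counting error.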

Other observations

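Some other shared genes were chosen here after their values were seen. *Avp*, which encodes vasopressin, was measured at 0.12, 0.506 and 0.121 FPKM in the Con. libraries, at 1.78, 3.03 and 0.844 FPKM in the PTZ libraries and at 0.831 and 0.926 FPKM in the Q808 libraries, a log2 fold change of 2.18. Its injected libraries were all higher. *Plat*, tissue plasminogen activator, rose from between 17.7 and 21.9 FPKM to between 27.1 and 51.9 FPKM, and *Nos3*, endothelial nitric oxide synthase, from between 2.58 and 3.47 FPKM to between 4.49 and 7.14 FPKM. *Crem*, a cyclic AMP-responsive factor, rose by 0.94 on the log2 scale and *Nfkbiz*, an NF-κB cofactor, by 1.06.

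Of the 126 shared higher genes 54 had a mean under 1 FPKM, as did 8 of the 19 shared lower genes.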
